A study of Mus musculus with 3 samples.

Results

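Expression of 10 genes that restrain the cell cycle, the CDK inhibitors with p53, its regulator Mdm2 and the retinoblastoma gene, was followed in aortas of mice labelled Plk1(+/-). The genes were Cdkn1a, Cdkn1b, Cdkn1c, Cdkn2a, Cdkn2b, Cdkn2c, Cdkn2d, Trp53, Rb1 and Mdm2. They were taken by name: every probe other than a control probe whose gene name, or the current symbol of its accession, was 1 of the 10. All 10 genes were on the array, with 16 of its 41174 probes and 70 spots. Of the 16 probes, 14 were well above background in at least 1 dye on 2 or more arrays and were kept. The kept probes covered 9 genes, which were tested among 22160 features, and Cdkn2a was the gene left untested.

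Each of 3 arrays on 1 slide held RNA of a single aorta labelled Plk1(+/-) in Cy5 and RNA of the same pool of 3 wild-type aortas in Cy3. All animals were 3 to 5 months old and of the strain 129/CD1. Plk1 encodes polo-like kinase 1, which drives entry into and passage through mitosis, and where its allele was interrupted is not given in the sources used here. A log2 ratio below is the sample over the pool, so a value above 0 is a higher signal in the labelled sample. The dyes were never exchanged, so dye and genotype cannot be told apart. The pool is 1 control sample, and a test of the ratio against 0 leaves out the spread among wild-type mice. Fewer cells of a type and less RNA per cell cannot be told apart in these tissue samples.

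The products of these genes hold cells back at defined steps of the cycle. Cdkn1a, Cdkn1b and Cdkn1c encode p21, p27 and p57, which bind complexes of cyclins with cyclin-dependent kinases (CDKs). The INK4 genes Cdkn2a, Cdkn2b, Cdkn2c and Cdkn2d encode p16, p15, p18 and p19, which bind Cdk4 and Cdk6 and keep them from D-type cyclins. Active CDKs phosphorylate the retinoblastoma protein, the product of Rb1, which otherwise holds E2F transcription factors in check. Trp53 encodes p53, a transcription factor that switches on Cdkn1a and Mdm2, and Mdm2 in turn marks p53 for degradation. Arteries of adult mice hold mostly resting smooth muscle cells, in which p27 is a known brake on division. Much of the control of p27 and p53 acts on the protein, which these arrays did not measure.

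The sequences of 4 probes are shown because they are the second probes by which the results for Cdkn1b, Trp53, Rb1 and Mdm2 could be compared within a gene. They are copied from the scanner files in lower case with no part marked, and positions are those of the files on mm7. The Cdkn1b probe lies at chr6:134935407-134935465 on the plus strand, the Trp53 probe at chr11:69671206-69671265 on the plus strand, the Rb1 probe at chr14:67944271-67944330 on the minus strand and the Mdm2 probe at chr10:117204040-117204099 on the minus strand.
Cdkn1b: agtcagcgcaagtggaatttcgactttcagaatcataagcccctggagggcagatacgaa
Trp53: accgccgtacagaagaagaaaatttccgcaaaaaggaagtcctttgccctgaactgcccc
Rb1: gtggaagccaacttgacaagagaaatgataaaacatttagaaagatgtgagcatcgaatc
Mdm2: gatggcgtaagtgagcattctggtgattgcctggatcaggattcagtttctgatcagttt
These probes started 2503 bases (Cdkn1b, to the probe not kept), 9175 bases (Trp53), 66953 bases (Rb1) and 3447 bases (Mdm2) from another probe of the same gene. The 16 member probes had a GC content of 36.7% to 60.0%, against a median of 40.0% over the probes of the array. Where the probes lie relative to exons and UTRs was not analysed here.

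None of the 9 tested genes passed the adjusted threshold of 0.05 in limma's test, and none had an unadjusted p below 0.05. Over all 22160 features, 0.903% passed the adjusted threshold (200 features) and 18.9% had an unadjusted p below 0.05 (4195 features). The 9 genes had no saturated spot, and with saturated features left out of the fit 0 of 21628 features passed. Trp53 and Cdkn1b were above the pool in all 3 samples, Rb1 was below it in all 3, and the other 6 genes had both signs. Over all features, 26.3% were positive on every array and 19.1% negative on every array. The median log2 ratio of the 9 genes was -0.04, -0.07 and 0.12 in samples 1, 2 and 3, against 0.03, 0.01 and 0.04 over all features.

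**Figure D1:**
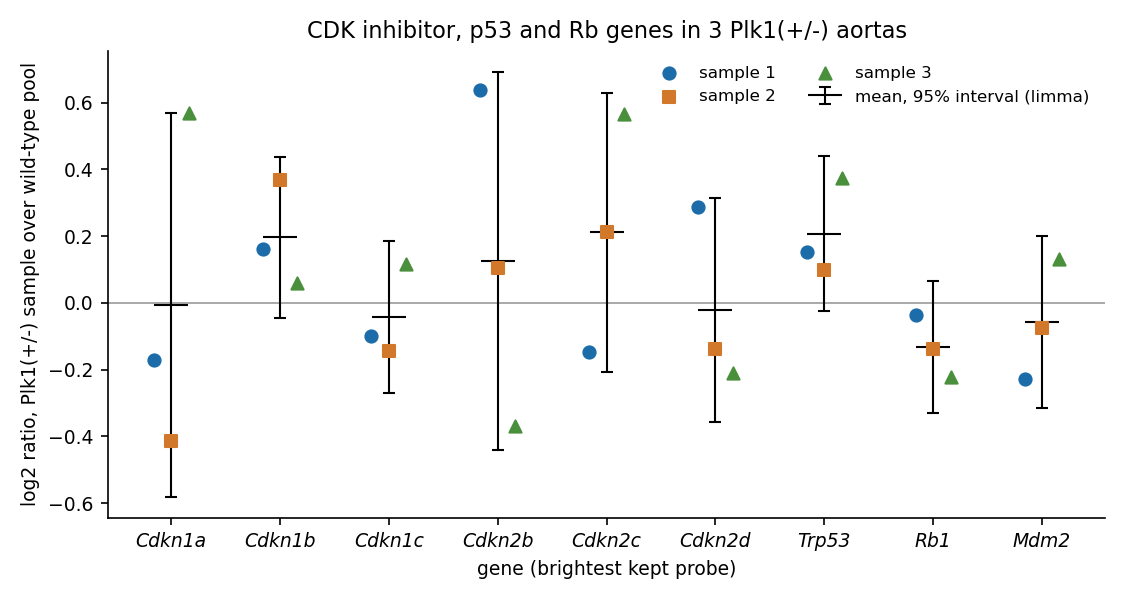
Log2 ratio of each Plk1(+/-) sample over the wild-type pool for 9 genes, 1 symbol per sample, with the mean of 3 samples and its 95% interval from limma. Every interval spans 0, and Cdkn1a, Cdkn2b and Cdkn2c have the widest intervals.

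Among the inhibitors of the p21 family, Cdkn1a differed most between samples. Its probe, printed 10 times at chr17:27293819-27293878, read a mean signal of 1847, 1834 and 3534 in Cy5 in samples 1, 2 and 3, against 855, 1009 and 892 in Cy3. Its log2 ratio was -0.17, -0.41 and 0.57. Sample 3 was thus above the pool while samples 1 and 2 were below it, and the mean of -0.0062 ± 0.51 (SD, n = 3) lies close to 0. The limma interval ran from -0.58 to 0.57 (adjusted p = 0.989), and 7.40% of features had a larger SD over the 3 samples. Repeated spots measure the error of printing and reading within an array, and not that of labelling or between mice. In sample 1 the spots read from -0.22 to -0.12, in sample 2 from -0.54 to -0.31 and in sample 3 from 0.54 to 0.67. These ranges did not overlap, and the SD among spots was 0.040, 0.065 and 0.042, while the SD between samples was 0.51. How many of the 245 probes with several spots on the array have separate ranges was not counted.

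Cdkn1b was above the pool in each sample on its brightest probe, at chr6:134939519-134939578. Its log2 ratio there was 0.16, 0.37 and 0.06, a mean of 0.20 ± 0.16 (SD, n = 3), with an interval of -0.04 to 0.44 (limma adjusted p = 0.324). The Cy5 signal was 1937, 2232 and 1769 and the Cy3 signal 713, 715 and 651. The 10-spot probe shown above gave 0.09, -0.14 and 0.0081, a mean of -0.01 ± 0.12, so the sign of the brightest probe was not shared by the other. That probe was dim, at 204 to 225 in Cy5 and 113 to 118 in Cy3. The remaining Cdkn1b probe was not well above background on any array.

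Cdkn1c, an imprinted gene expressed from the maternal copy, had a spread close to that of a typical feature. Its probe at chr7:139886128-139886187 read 4185, 3925 and 4661 in Cy5 and 1768, 1737 and 1574 in Cy3. The log2 ratio was -0.10, -0.14 and 0.12, a mean of -0.04 ± 0.14 (SD, n = 3; interval -0.27 to 0.18; limma adjusted p = 0.800), and 52.6% of features had a larger SD. Samples 1 and 2 were below the pool and sample 3 above it. The gene lies on chromosome 7, as Plk1 does.

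**Figure D2:**
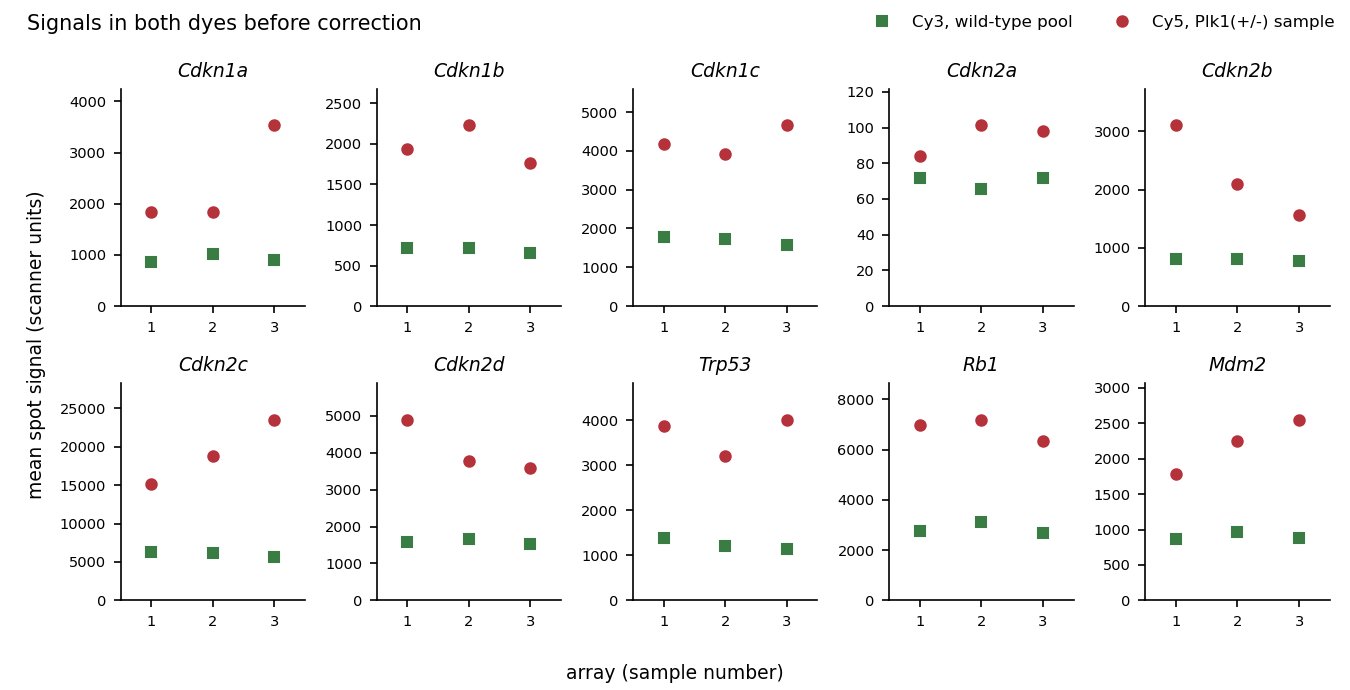
Mean spot signal in scanner units, before background correction and without outlier spots, in Cy3 (wild-type pool, squares) and Cy5 (Plk1(+/-) sample, circles) on arrays 1 to 3, 1 panel per gene with its own axis from 0. Cy3 signals change little between arrays, Cy5 of Cdkn1a is highest in sample 3 at 3534, and Cdkn2b is highest in sample 1 at 3107.

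In the INK4 family, Cdkn2a could not be measured. Its probe, printed 10 times at chr4:88678367-88678426, was not well above background on any array, with a mean signal, outlier spots left out, of 71.6, 65.4 and 71.6 in Cy3 and 83.9, 101 and 98.2 in Cy5. No fold is given for it. On array 1 a single spot read 315 in Cy3 and 697 in Cy5, while the other spots of the probe read at most 77.8 and 105. The scanner software marked that spot as an outlier and it was left out (with it and 1 further outlier spot, the array 1 means were 95.9 and 147), and on arrays 2 and 3 the spot at the same place read 66.6 and 63.4 in Cy3.

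Cdkn2b, the neighbour of Cdkn2a on chromosome 4, gave a signal well above background in Cy3 and in Cy5 on each array. Its 1 spot per array read 3107, 2105 and 1560 in Cy5 and 807, 811 and 772 in Cy3. The log2 ratio was 0.64 in sample 1, 0.11 in sample 2 and -0.37 in sample 3, a mean of 0.13 ± 0.50 (SD, n = 3). Cdkn2b was thus highest in sample 1 and below the pool in sample 3, the reverse of Cdkn1a in those samples. The interval was -0.44 to 0.69 (limma adjusted p = 0.762), and 7.64% of features had a larger SD. The files give no position for this probe.

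Cdkn2c was highest in sample 3 on both of its probes. The brighter, at chr4:109037613-109037672, read 15117, 18724 and 23531 in Cy5 and 6292, 6183 and 5653 in Cy3. Its log2 ratio was -0.15, 0.21 and 0.57, a mean of 0.21 ± 0.36 (SD, n = 3; interval -0.21 to 0.63; limma adjusted p = 0.492). The other probe gave -0.22, 0.15 and 0.50, but the probes share 40 bases and are not independent readings. Cdkn2d, at chr9:21165094-21165153, had its highest value in sample 1, with 0.29, -0.14 and -0.21. Its mean was -0.02 ± 0.27 (SD, n = 3; interval -0.36 to 0.31; limma adjusted p = 0.940). Thus within the INK4 family Cdkn2c was highest in sample 3, and Cdkn2b and Cdkn2d were highest in sample 1 and lowest in sample 3.

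Trp53 was the member with the smallest unadjusted p. On its brightest probe, at chr11:69662031-69662089, the Cy5 signal was 3878, 3211 and 4015 and the Cy3 signal 1384, 1214 and 1148. The log2 ratio was 0.15, 0.10 and 0.37, a mean of 0.21 ± 0.15 (SD, n = 3), 1.16-fold, with an interval of -0.02 to 0.44 (limma adjusted p = 0.295). The 10-spot Trp53 probe shown above gave 0.0061, -0.08 and -0.02, a mean of -0.03 ± 0.04. Both probes were well above background on every array, in Cy3 and in Cy5, and they differed in sign in samples 2 and 3. The 10-spot probe was the dimmer, at 387 to 403 in Cy5 and 184 to 196 in Cy3.

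Mdm2, both a target of p53 and its inhibitor, had values on both sides of the pool. Its brightest probe, at chr10:117200593-117200652, read 1781, 2243 and 2550 in Cy5 and 860, 968 and 876 in Cy3. The log2 ratio was -0.23, -0.07 and 0.13, a mean of -0.06 ± 0.18 (SD, n = 3; interval -0.32 to 0.20; limma adjusted p = 0.764). The 10-spot Mdm2 probe gave -0.10, -0.02 and 0.03, the same sign in each sample with smaller values. Its SD among spots was larger than its mean in each sample, at 0.13, 0.11 and 0.13. The median of its spots in sample 2 was 0.02, so its signs lie within the spread of the spots. Cdkn1a is the other p53 target among the members. Like the brightest Mdm2 probe, it was below the pool in samples 1 and 2 and above it in sample 3. The same signs were found for Cdkn1c, at -0.10, -0.14 and 0.12, so they were not particular to these targets. A link of the signs to p53 was not tested.

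Rb1 had the smallest SD of the 9 genes. Its 10-spot probe at chr14:67877318-67877377 read 6965, 7200 and 6341 in Cy5 and 2757, 3113 and 2674 in Cy3. The log2 ratio was -0.04, -0.14 and -0.22, a mean of -0.13 ± 0.09 (SD, n = 3; interval -0.33 to 0.07; limma adjusted p = 0.389), and 71.7% of features had a larger SD. Spots of sample 1 read from -0.08 to 0.02, of sample 2 from -0.24 to -0.05 and of sample 3 from -0.33 to -0.11. The ranges overlap, unlike those of Cdkn1a. The second Rb1 probe, shown above, gave -0.18, -0.21 and -0.02, a mean of -0.13 ± 0.10, but was well above background in Cy3 on only 1 array. With the scanner software's own log ratio this second probe read -0.19, -0.49 and 0.86, a mean of 0.06. Its sign in sample 3 and that of its mean thus depended on the processing.

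**Figure D3:**
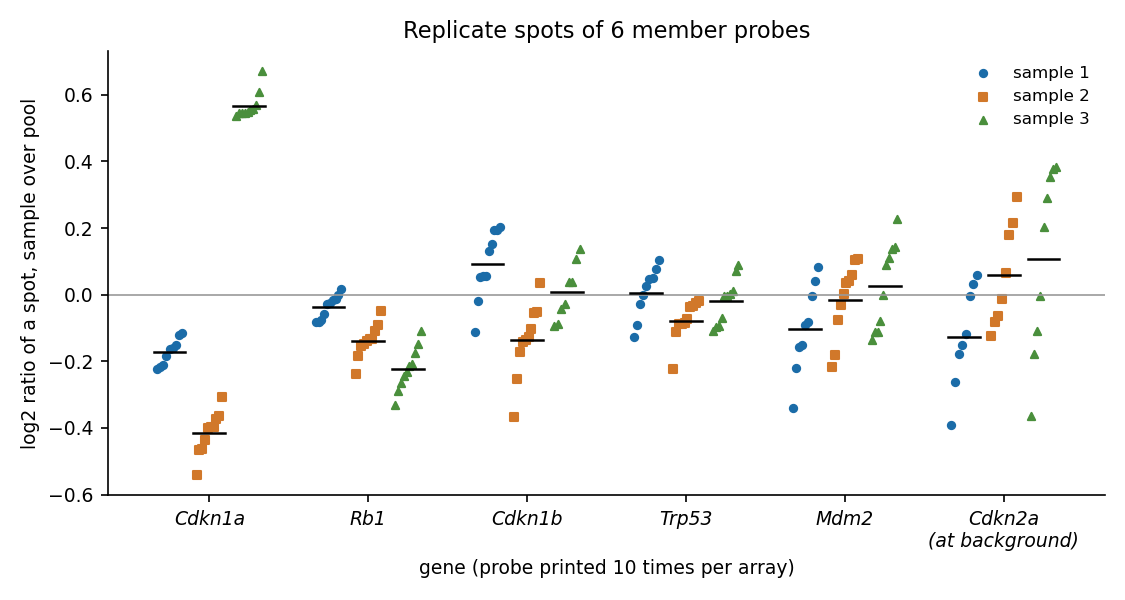
Log2 ratio of each repeated spot of 6 probes printed 10 times per array, with spots sorted by value within a sample and a bar at their mean; spots marked as outliers are left out. Spots of Cdkn1a form 3 separate groups by sample, those of the other genes overlap, and those of Cdkn2a are at background. The Cdkn1b, Trp53 and Mdm2 probes shown are dim.

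How the ratio was made decided whether any member was called. When arrays were centred on their median and not corrected along intensity by loess, the median log2 ratio over all features was 0.23 in place of 0.04, and 32.2% of features were called higher. With that setting 5 of the 9 members were called higher: Trp53 at 0.61, Cdkn1b at 0.55, Cdkn2c at 0.69, Cdkn1c at 0.38 and Rb1 at 0.32. The means of Cdkn1c and Rb1 thereby changed sign. The Trp53 and Cdkn1b values on their dimmer probes were 0.10 and -0.14 with the same setting. In the other 13 alternatives, among them the scanner software's own log ratio and the authors' table, no member was called.

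**Figure D4:**
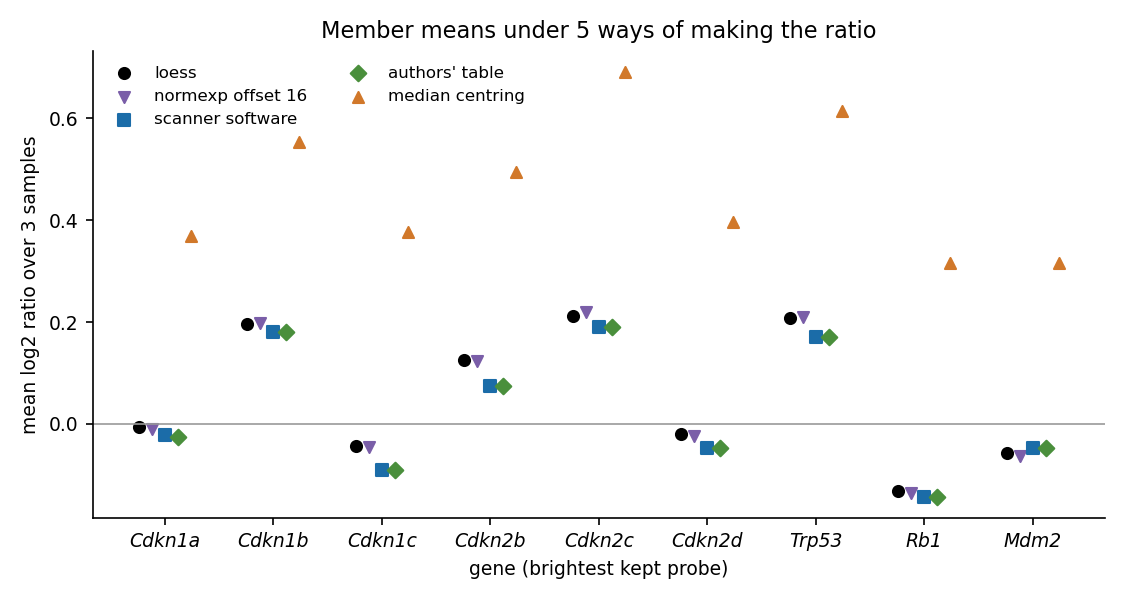
Mean log2 ratio over 3 samples for 9 genes under 5 ways of making the ratio, 1 symbol per way. Median centring stands above the other 4 in every gene, with Rb1 at 0.32 in place of -0.13, while the other 4 lie close together.

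Genes around the members were counted by function, leaving out probes with a saturated spot. Of 28 measured p53 target genes, 2 had an unadjusted p below 0.05 with a higher signal and 1 with a lower signal. Over all 22160 features, saturated ones included, 9.15% were higher and 9.78% lower at that threshold. With saturated features left out of the fit, 3813 of 21628 were below it in either direction. None of the 28 genes passed the adjusted threshold. Bid, a death-promoting member of the Bcl2 family, was 0.20, 0.37 and 0.53 (mean 0.37 ± 0.17, SD, n = 3; limma adjusted p = 0.193). Gdf15, a stress-induced cytokine, was 0.12, 0.22 and 0.31, and Perp, a p53 target of cell junctions, was -0.17, -1.17 and -0.60. The list's median was 0.03, -0.0022 and 0.09 in samples 1, 2 and 3. Phlda3, which restrains Akt, had a saturated spot and was below the pool on all arrays (limma adjusted p = 0.0779), with no fold given.

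Of 21 regulators of p53 measured without a saturated spot, 1 had an unadjusted p below 0.05, Npm1, which encodes nucleophosmin, a nucleolar protein that binds Arf. The share of all features below that threshold, saturated ones included, was 18.9%. Npm1 was 0.18, 0.24 and 0.62 (mean 0.35 ± 0.24, SD, n = 3; limma adjusted p = 0.239). Its second probe gave -0.02, 0.09 and 0.36. The median of the 21 genes was -0.13, -0.04 and 0.07. Rpl11 and Rpl5, ribosomal proteins that bind Mdm2, and Ddx5, an RNA helicase that acts with p53, had saturated spots, and none of them was called.

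Among 19 measured members of the Rb family, the E2F factors and the DREAM complex, 2 were higher and 3 lower at an unadjusted p below 0.05, and none was called after adjustment. Both directions together made up 18.9% of all features, saturated ones included. Rbl1, which encodes the Rb relative p107, was 0.29, 0.30 and 0.63 (mean 0.40 ± 0.19, SD, n = 3; limma adjusted p = 0.191). E2f1, an activating E2F, was 0.22, 0.27 and 0.29, but its second probe gave 0.10, 0.04 and -0.01. E2f2 was -0.43, -0.21 and -0.81 and the repressor E2f6 was -0.16, -0.27 and -0.58. A second E2f6 probe gave 1.03, 0.42 and -0.13, so its direction was not shared by its probes.

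Of 21 cyclins, CDKs and enzymes or cofactors that regulate CDKs, 1 was higher and 2 were lower at an unadjusted p below 0.05, and none was called. Shares over all features, saturated ones included, were 9.15% higher and 9.78% lower. The list holds genes that the inhibitors do not bind, such as Wee1 and the Cdc25 phosphatases. Cdc25b, a phosphatase that activates CDKs, had the smallest p of them, with -0.61, -0.86 and -0.46 (mean -0.64 ± 0.20, SD, n = 3; limma adjusted p = 0.120). Its further probes gave means of -0.15 and 0.07. Ccnd2, which encodes cyclin D2, was -0.64, -0.52 and -0.17, and its further probes gave means of -0.46 and -0.36. Ccne1, which encodes cyclin E1, was 0.71, 0.27 and 0.19. Cdkn3, a phosphatase that acts on CDKs, was 0.20, 0.13 and 0.56. Cyclin D2 was therefore below the pool in each sample on 3 of 3 probes, without passing the adjusted threshold (adjusted p = 0.199).

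Of 25 E2F target genes of S phase, 6 were higher and 2 lower at an unadjusted p below 0.05, and none was called. Over all features, saturated ones included, 9.15% were higher and 9.78% lower at that threshold. Their median was 0.07, 0.13 and 0.31 in samples 1, 2 and 3. Mcm5, a subunit of the replicative helicase, was 0.32, 0.58 and 1.02 (mean 0.64 ± 0.35, SD, n = 3; limma adjusted p = 0.188). Pcna, the sliding clamp of DNA polymerases, was 0.34, 0.22 and 0.59, and Mcm4, another helicase subunit, was 0.37, 0.13 and 0.62. Mcm6, a subunit of the same helicase, was instead -1.41, -0.94 and -0.25. Helicase subunits thus lay on both sides of the pool.

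Among 30 tested regulators of the inhibitor genes and of their protein turnover, 1 was called, Klf2, a transcription factor of endothelium that can induce Cdkn1a. It was below the pool in all 3 samples (limma adjusted p = 0.0437), its probe had a saturated spot and no fold is given, and its second probe gave -0.67, 0.03 and 0.28. Calls made up 0.903% of all features, saturated ones included, and 18.9% had an unadjusted p below 0.05. With saturated features left out of the fit, no feature of the array was called by limma (3813 of 21628 at an unadjusted p below 0.05). Of the 29 genes without a saturated spot, Ets1, which can induce Cdkn2a, was the 1 gene at an unadjusted p below 0.05, with 0.14, 0.46 and 0.86. Its 3 further probes gave means of 0.51 to 0.69. Foxo4, which can induce Cdkn1b, was -0.26, -0.42 and -0.06, and Tbx3, a repressor of Cdkn2a, was -0.25, -0.34 and -0.05.

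In the imprinted cluster that holds Cdkn1c, 13 further genes were measured without a saturated spot, and 1 was lower at an unadjusted p below 0.05. Among all features, saturated ones included, 9.78% were lower at that threshold. The 1 gene was H19, a long noncoding RNA, with -0.49, -0.53 and -1.03 (mean -0.68 ± 0.30, SD, n = 3; limma adjusted p = 0.161). Its second probe gave -0.51, -0.63 and -0.94. Igf2, the growth factor gene beside H19, was -0.04, -0.13 and -0.37, and Ins2, an insulin gene, was 0.52, 0.11 and 0.08. Second probes gave both signs, with -0.05, 0.02 and -0.27 for Igf2 and 0.13, -0.02 and -0.02 for Ins2. Cd81, a tetraspanin gene, had a saturated spot and was not called. The means of the 13 genes ran from -0.68 to 0.57.

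**Figure D5:**
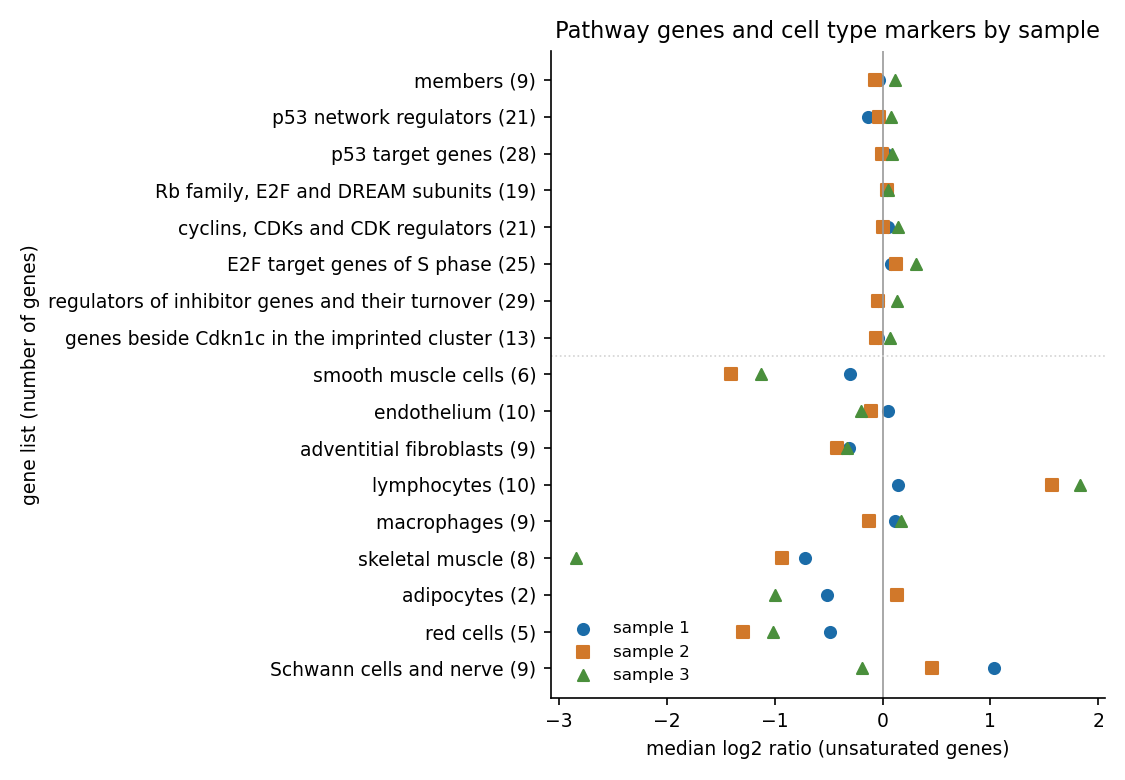
Median log2 ratio over the unsaturated genes of each list in samples 1, 2 and 3, with the members and 7 pathway lists above the dotted line and 9 cell type marker lists below it; the number of genes is in parentheses. Pathway medians stay between -0.13 and 0.31, while lymphocyte markers reach 1.83 and skeletal muscle markers -2.84 in sample 3.

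The samples also differed in markers of the cell types an aorta and its surroundings can hold. The defining markers of smooth muscle were measured for 10 of 10 genes, and the 6 without a saturated spot were below the pool in all 3 samples, with medians of -0.30, -1.41 and -1.12. Lymphocyte markers (10 of 10 measured, none saturated) had medians of 0.14, 1.57 and 1.83, so samples 2 and 3 stood apart from sample 1. Skeletal muscle markers (8 of 10 unsaturated) had medians of -0.72, -0.94 and -2.84. Markers of Schwann cells and nerve (9 of 10 unsaturated) had medians of 1.03, 0.46 and -0.19. Values were highest in sample 1 and lowest in sample 3 for the nerve, skeletal muscle and endothelial lists, as for Cdkn2b, Cdkn2d and Rb1. The second Rb1 probe did not share this order, with -0.18, -0.21 and -0.02. The lymphocyte list had the reverse order, as had Cdkn2c and Mdm2. Medians of the p53 regulator, Rb family and E2F target lists had that reverse order too, so it was not particular to lymphocyte markers. The share of all features with either order was not counted. Fibroblast medians were -0.31, -0.42 and -0.33, endothelial 0.05, -0.11 and -0.20, macrophage 0.12, -0.13 and 0.17, and red cell -0.49, -1.30 and -1.02. With median centring the median of the list means turned from -0.42 to 0.07 for fibroblasts, from -0.06 to 0.35 for endothelium and from -0.0022 to 0.33 for the p53 regulators. For adipocytes, 8 of 10 markers had a saturated spot. The part of these cell types in the values of the members was not tested.

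The targeted gene did not separate the samples from the pool. Samples 1, 2 and 3 had log2 ratios of -0.06, -0.08 and 0.42 for Plk1, on average 0.10 ± 0.28 (SD, n = 3; limma adjusted p = 0.706). Whether the Plk1 probe lies in the interrupted part of the allele is not known here, so its ratio cannot check the genotype. Directions here refer to samples by their label. Of the 200 features called over the array, 8 were higher and 192 lower, and 29 had no saturated spot. Cy5 signal was well above background for 76.4% to 80.3% of probes and Cy3 signal for 65.4% to 68.4%. The number of arrays limits the precision, and the median SD of a feature over the 3 samples was 0.15.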

How the data were processed

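Total RNA was amplified, labelled and hybridised to 3 Agilent arrays, per the labels' protocols. The deposited scanner files hold the mean and background intensity of each spot, without normalization; per the file headers, the software was Feature Extraction 9.5.3.1. The deposited log ratio of these files is a log10 ratio of Cy5 over Cy3 after background subtraction and dye normalization, and the authors' series table holds log2 ratios; both served as alternatives. The tissue label, aorta, was followed, although the labels' growth protocol speaks of embryonic stem cells.

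Mean signals were corrected with normexp (offset 50), normalized by loess within each array with control spots at weight 0, and averaged over the spots of a probe, in limma 3.58.1 under R 4.3.3 with version 1.17.8 of the data.table package. Control spots and outlier spots (136, 109 and 100 per array) were left out, also of the signals printed. Probes were kept where, on 2 or more of the 3 arrays, Cy3 or Cy5 was well above background (for repeated probes, on most spots). The brightest kept probe stood for a gene. A two-sided limma test (lmFit, eBayes) set each ratio against 0, and p-values were adjusted over all 22160 features (Benjamini-Hochberg), 17076 of them with a symbol. Symbols were updated through a gene listing of GRCm38.p6, used for names alone: accessions named 22951 probes, 6659 already carried a current symbol, 3109 carried a synonym and 8455 kept the files' name.

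Members and lists were chosen with earlier results of these data known. The genes named were all members with each probe, Plk1, and from each pathway list the genes past the adjusted threshold and up to 4 with the smallest unadjusted p. The alternatives were another normexp offset of 16, median centring, both other ratio sources, the filter on dim probes, saturated features, the choice of probe, an intensity trend in the variance and each sample left out. The fit was tested on simulated data. Figures were drawn with matplotlib 3.10.9.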

Additional observations from a re-analysis of the deposited data

How the results depend on the processing

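The count of members past the adjusted threshold was 0 in 13 of 14 alternatives and 5 with median centring, where Cdkn1b was 0.55 (limma adjusted p = 0.0227), Trp53 0.61 (0.0228), Cdkn2c 0.69 (0.0337), Rb1 0.32 (0.0371) and Cdkn1c 0.38 (0.0438), the last 2 with the opposite sign to the loess values. The calls over all features, 200 after loess, were 9753 with median centring, 120 with the scanner software log ratio, 0 with saturated features left out (3813 at an unadjusted p below 0.05) and 0 with an intensity trend in the variance (4198 unadjusted). With 1 sample left out they ranged from 0 to 174, with 0 calls without sample 2 (1977 unadjusted), 0 without sample 3 (3103 unadjusted) and 174 without sample 1; the cause of these differences was not tested. Members past the threshold were 0 without any of the samples, 1 member, Cdkn2c at 0.39 without sample 1, had an unadjusted p below 0.05 there, and the mean of Cdkn1a ran from -0.29 without sample 3 to 0.20 without sample 2. The means of Cdkn1b, Cdkn2c and Trp53 kept their sign in all 14 alternatives, but that of Cdkn2c, 0.21 over 3 samples, was 0.03 without sample 3. Most of these alternatives read the brightest probe alone, so they say little on the choice of probe. The other kept probes of Cdkn1b and Trp53 had means of -0.01 and -0.03. With the mean over the kept probes of a gene, Cdkn1b and Trp53 were both at 0.09. Of 224 recomputed list medians, 20 moved by more than the SD between arrays, 10 of them with median centring, which turned the sign of 3 lists (fibroblasts, endothelium and p53 regulators). The mean over spots was also replaced by the median, chosen after seeing the data, and no member was called.

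Each log2 ratio already set 1 sample against the same pool within an array. No further pairing was possible, because the pool is 1 control sample and wild-type animals were not measured singly. With 3 samples, 1 control pool and 1 dye orientation, small differences, such as the 1.16-fold of Trp53, were not separable from the spread between samples. Dim probes limit the second readings of Cdkn1b, Trp53, Rb1 and Mdm2.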

Other observations

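In the authors' deposited table, the Cdkn2a probe, which was not well above background on any array, is listed with log2 ratios of -0.21, -0.62 and 0.23, and with no filter on dim probes Cdkn2a was tested and not called.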
